A study of Mus musculus with 15 samples.

Results

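The genes described here are 34 genes of cholesterol handling, chosen by name: 18 enzymes of cholesterol synthesis, 6 genes of SREBP control and sterol transport, and 10 genes of cholesterol efflux, storage and liver X receptor (LXR) signalling. All 34 were found among the 28347 genes of the steady-state table and among the 48709 genes of the surgery table. The list does not cover the whole pathway. The study sequenced RNA of cells sorted from C57BL/6 mice, in 15 libraries of 5 groups with 3 libraries each. In the steady state these were CX3CR1-high CCR2-high macrophages of visceral adipose tissue (CCR2-high), CX3CR1-low CCR2-low macrophages of the same tissue (CCR2-low), and cells labelled blood monocytes (labelled monocytes). In the surgery experiment all libraries were CX3CR1-low CCR2-low macrophages of visceral adipose tissue, taken after myocardial infarction (MI) or after sham surgery. No transgene or deletion is named for any group. The sources used here do not give the ages of the mice, the number of cells sorted, the gates or the time after surgery.

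Cells make cholesterol from acetyl-CoA through mevalonate, farnesyl diphosphate, squalene and lanosterol. When sterols in the endoplasmic reticulum are low, the escort protein SCAP carries the SREBP transcription factors to the Golgi, where they are cut and released to switch on the synthesis genes, and the INSIG proteins hold this complex back when sterols are plentiful. Oxysterols activate the LXR nuclear receptors, whose known targets include the efflux transporters ABCA1 and ABCG1, apolipoprotein E and the E3 ligase MYLIP. Macrophages take up lipid from dying cells and lipoproteins, and they are known for high expression of the efflux side of this system.

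The promoters shown here hold the DNA letters by which these factors are best known, and they belong to Hmgcs1, Abca1 and Srebf1, genes of the list picked by hand. They come from RefSeq on build GRCm38.p6, each printed as the 250 bases before the transcript start, 5′ to 3′ on the strand of the gene. In Hmgcs1 (chr13:119690101-119690350, plus strand) the capitals mark a match to the sterol regulatory element letters TCACNCCAC and 3 CCAAT boxes read on the opposite strand as ATTGG. In Abca1 (chr4:53159896-53160145, minus strand) and in Srebf1 (chr11:60210472-60210721, minus strand, before an inner start of that gene) the capitals mark a match to the LXR direct repeat GGTNANNNNNGGTCA, read on the opposite strand.
Hmgcs1: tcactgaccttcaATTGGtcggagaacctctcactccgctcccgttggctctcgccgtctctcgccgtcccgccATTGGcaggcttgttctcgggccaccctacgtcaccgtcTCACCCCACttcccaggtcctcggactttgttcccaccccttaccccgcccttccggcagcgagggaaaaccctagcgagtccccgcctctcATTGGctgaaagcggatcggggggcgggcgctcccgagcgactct
Abca1: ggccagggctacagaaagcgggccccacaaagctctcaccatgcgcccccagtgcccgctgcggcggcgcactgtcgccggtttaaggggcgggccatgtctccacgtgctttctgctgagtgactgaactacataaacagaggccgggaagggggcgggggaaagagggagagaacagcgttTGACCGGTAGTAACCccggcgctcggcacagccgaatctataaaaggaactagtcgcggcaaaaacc
Srebf1: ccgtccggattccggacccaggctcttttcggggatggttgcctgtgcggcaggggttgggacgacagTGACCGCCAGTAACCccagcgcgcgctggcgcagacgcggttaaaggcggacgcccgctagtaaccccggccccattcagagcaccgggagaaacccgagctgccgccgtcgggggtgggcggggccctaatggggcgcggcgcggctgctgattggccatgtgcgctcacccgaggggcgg
Promoter windows (250 bases before to 50 after the start) were listed for 28 of the 34 genes and for 27025 genes in all, and 12 patterns were searched on both strands. The sterol element was in 1.44% of all genes and in 1 of the 28, Hmgcs1. CCAAT, which the factor NF-Y binds beside SREBP, was in 41.1% of all genes and in 14 of the 15 synthesis enzymes with a window. The GC box GGGCGG, another of the 12 patterns, was in 38.2% of all genes and also in 14 of these 15 enzymes. The LXR repeat was in 0.226% of all genes and in 2 of the 28, Abca1 and Srebf1, and its letters were written to fit the known Abca1 element. A match of letters is a description and not a binding site.

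The steady-state values are TPM (transcripts per 1e6 transcripts) and the surgery values RPKM (reads scaled by gene length and read total), and no test joined the tables. Worked back from the smallest values, the steady-state libraries held about 41.3 to 60.0 M reads each (M for 1e6), and the read totals behind the RPKM were about 57.5 to 75.5 M. The fat libraries matched a macrophage label: a list of 7 macrophage genes summed to 31831 to 33547 TPM in CCR2-high and 30844 to 42821 TPM in CCR2-low libraries, against 1001 to 1241 TPM in labelled monocytes. In the libraries labelled blood monocytes, 6 classical monocyte genes summed to 7361 to 8613 TPM, against 1833 to 2164 TPM in the macrophage libraries, although 2 of the 6, Ccr2 and Csf1r, were higher in macrophages. Granule precursor genes (Mpo, Elane, Prtn3, Ctsg and Ms4a3) summed in labelled monocytes to 25522 to 30789 TPM, against 1.38 to 13.03 TPM in the macrophage libraries, where Ms4a3 was listed at 0. They also differed in sex: the female transcript Xist was listed at 0 in all 6 macrophage libraries and at 15.4 to 22.3 TPM in labelled monocytes, and the Y-linked Ddx3y was at 43.6 to 61.1 TPM in macrophage libraries and at 0.0105 to 0.0127 TPM in labelled monocytes. Cell type, tissue and sex therefore cannot be told apart in any comparison with labelled monocytes. In the surgery libraries Ddx3y was listed at 0 throughout, and the sort gene Cx3cr1 ranked 1905 to 5546 among genes by RPKM, whereas it ranked 12473 to 13480 by TPM in steady-state CCR2-low libraries, so they are called CCR2-low by their labels only. The labels do not say whether the libraries of a group came from separate mice, so p-values measure the spread between these libraries. In RNA from pooled cells, fewer cells of a type and less RNA per cell cannot be told apart.

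**Figure D1:**
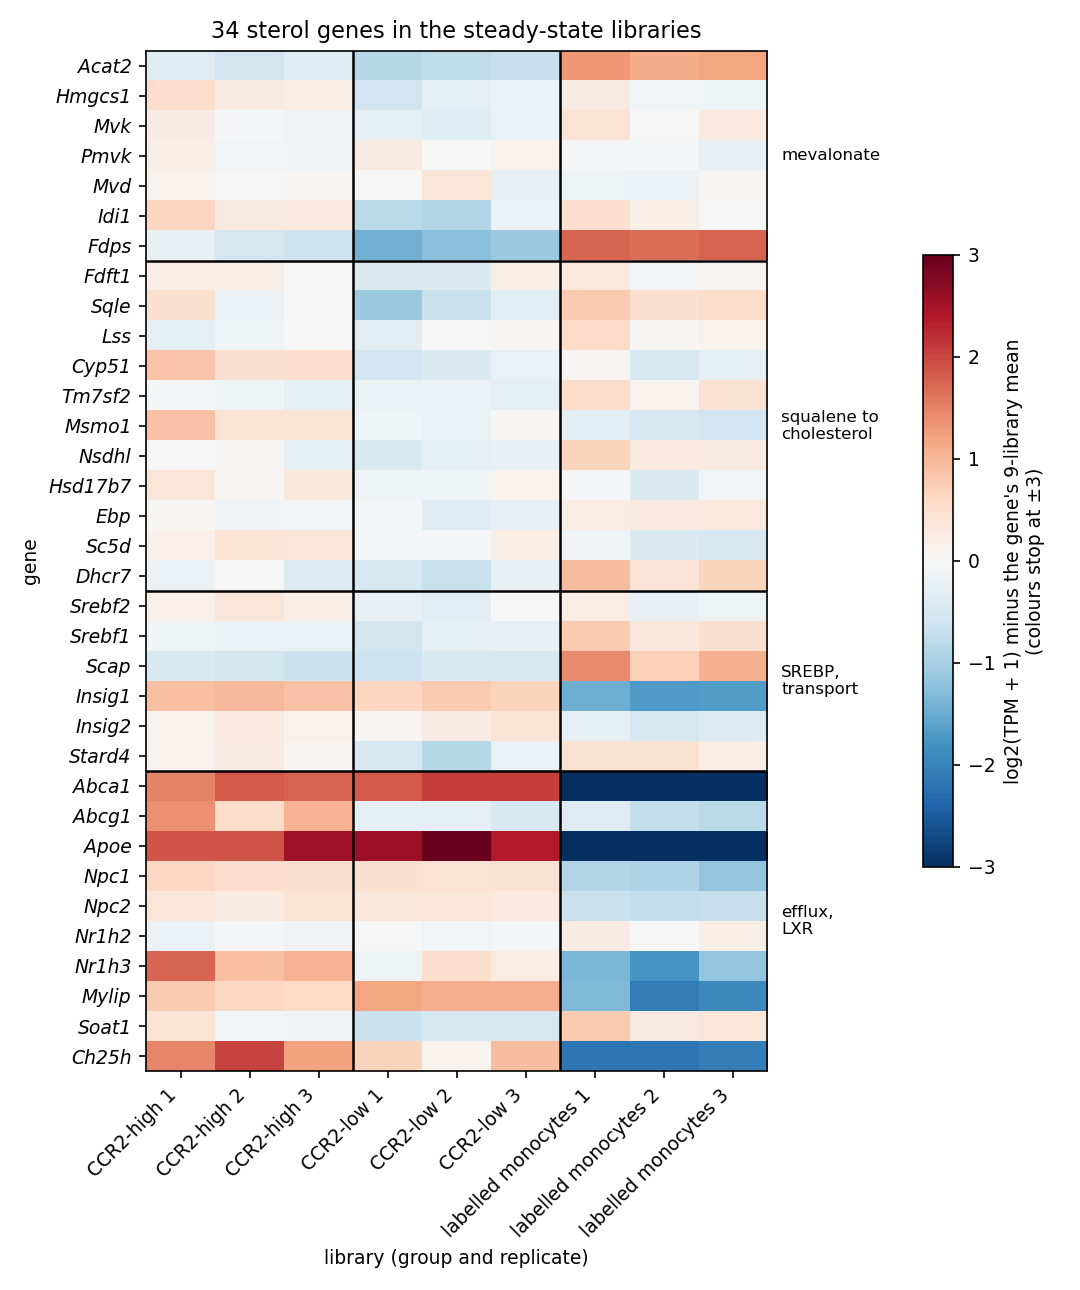
Heat map of the 34 genes (rows, by role) in the 9 steady-state libraries (columns, CCR2-high, CCR2-low and labelled monocytes, 3 libraries each), coloured by log2(TPM + 1) minus the mean of the gene over the 9 libraries, with colours that stop at −3 and 3. Abca1, Apoe, Mylip, Nr1h3 and Ch25h are above their mean in the macrophage libraries and far below it in labelled monocytes, with Nr1h3 near its mean in CCR2-low replicate 1, while Fdps and Acat2 run the other way.

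The first comparison asks how the macrophage subsets of visceral fat differ. Of the 18 synthesis enzymes, 7 were higher in CCR2-high macrophages, led by Cyp51 and Idi1 at 2.11 and 2.07 times the CCR2-low mean. They also held more of the cholesterol transporter Abcg1, the receptor Nr1h3 and the esterifying enzyme Soat1, while the other main efflux genes, Abca1 and Apoe, did not pass the test. In limma on log2(TPM + 1), with Benjamini-Hochberg adjusted p below 0.05 over 15467 genes, 12 of the 34 genes were higher in CCR2-high libraries and 0 were lower. Of all genes tested, 17.7% were called, 8.93% higher and 8.74% lower. The median log2 fold change was 0.28 over the 34 genes and −0.0085 over all genes tested. At an unadjusted p below 0.05, 14 of the 34 were higher and 2, Apoe and Mylip, were lower. The libraries of the subsets did not overlap in 16 higher genes and 1 lower gene of the 34, where 37.7% of all genes tested did not overlap, 19.7% higher and 18% lower.

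Of the 7 enzymes that lead to farnesyl diphosphate, 4 rose in CCR2-high libraries and the other 3 (Mvk, Pmvk and Mvd) had log2 fold changes of −0.12 to 0.31. Idi1 (ENSMUSG00000058258, mm10 chr13:8885501-8892451), the isopentenyl diphosphate isomerase, had 42.9, 32.8 and 33.2 TPM in CCR2-high libraries, against 14.9, 14.1 and 23.6 TPM in CCR2-low libraries. The groups did not overlap, and CCR2-low replicate 3 was the nearest to CCR2-high. The log2 fold change of Idi1 was 1.04 (SE 0.20, adjusted p = 0.00576 in limma). Fdps (ENSMUSG00000059743, chr3:89093588-89101959), which makes farnesyl diphosphate, had 56.6, 46.1 and 43.2 TPM in CCR2-high libraries, against 24.1, 27.2 and 30.1 TPM in CCR2-low libraries. It had the smallest p of the synthesis enzymes, with a log2 fold change of 0.82 (SE 0.12, adjusted p = 0.00135). Hmgcs1, the HMG-CoA synthase whose promoter is printed above, had 48.3, 40.4 and 37.8 TPM in CCR2-high libraries, against 22.0, 27.5 and 29.2 TPM in CCR2-low libraries. Its log2 fold change was 0.67 (SE 0.15, adjusted p = 0.0121). Acat2, the acetyl-CoA acetyltransferase at the start of the route, differed least of the called enzymes, at 18.1 ± 1.47 TPM in CCR2-high and 14.1 ± 0.918 TPM in CCR2-low libraries (SD, n = 3 each), a log2 fold change of 0.34 (SE 0.11, adjusted p = 0.047).

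Among the 11 enzymes that turn farnesyl diphosphate and squalene into cholesterol, 3 rose in CCR2-high libraries and 0 fell. Cyp51 (ENSMUSG00000001467, chr5:4081145-4104746), the lanosterol demethylase, had 32.0, 24.5 and 25.3 TPM in CCR2-high libraries, against 11.3, 12.6 and 14.9 TPM in CCR2-low libraries. All CCR2-high libraries lay above all CCR2-low libraries, with a log2 fold change of 1.02 (SE 0.17, adjusted p = 0.0025). Msmo1, the next demethylating enzyme, had 23.1, 16.3 and 16.5 TPM in CCR2-high libraries, against 11.02, 10.4 and 12.3 TPM in CCR2-low libraries (log2 fold change 0.67, SE 0.15, adjusted p = 0.0122). Sqle, the squalene epoxidase, had 12.1, 7.35 and 8.33 TPM in CCR2-high libraries, against 3.37, 4.94 and 6.38 TPM in CCR2-low libraries (log2 fold change 0.80, SE 0.21, adjusted p = 0.0265). In each of these enzymes CCR2-high replicate 1 was the highest library. The other 8 enzymes (Fdft1, Lss, Tm7sf2, Nsdhl, Hsd17b7, Ebp, Sc5d and Dhcr7) had log2 fold changes of −0.033 to 0.36 and did not pass the test. Of all 18 synthesis enzymes, 16 had a positive log2 fold change, and their median was 0.31.

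Of the 6 control and transport genes, 1 rose in CCR2-high libraries. Stard4, a carrier of free cholesterol between membranes, had 6.58, 7.35 and 6.36 TPM in CCR2-high libraries, against 3.93, 2.88 and 5.09 TPM in CCR2-low libraries (log2 fold change 0.67, SE 0.17, adjusted p = 0.0218). Srebf2, which encodes the SREBP that mainly drives cholesterol synthesis, had 39.8, 46.5 and 40.5 TPM in CCR2-high libraries, against 29.998, 28.7 and 36.2 TPM in CCR2-low libraries. The groups did not overlap, but the difference missed the threshold in this fit (log2 fold change 0.41, adjusted p = 0.0696). It passed under some alternative settings given at the end. Insig1, the sterol-sensing brake that is itself an SREBP target, was the most abundant of the 6, at 119 to 128 TPM in CCR2-high and 102 to 113 TPM in CCR2-low libraries (log2 fold change 0.22, adjusted p = 0.151). Srebf1, Scap and Insig2 had log2 fold changes of −0.070 to 0.18.

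The efflux and LXR genes did not move together between the subsets: 4 of 10 rose in CCR2-high libraries, 0 fell, and their median log2 fold change was 0.053. Abcg1 (ENSMUSG00000024030, chr17:31057675-31117988), which exports cholesterol to high-density lipoprotein, had 32.2, 17.8 and 25.2 TPM in CCR2-high libraries, against 9.56, 9.47 and 8.13 TPM in CCR2-low libraries. This was the largest difference of the 34 genes, a log2 fold change of 1.34 (SE 0.20, adjusted p = 0.00134). Abca1 (ENSMUSG00000015243, chr4:53030787-53159895), which loads cholesterol onto apolipoproteins, had 74.0, 94.7 and 89.4 TPM in CCR2-high libraries, against 93.8, 110 and 112 TPM in CCR2-low libraries. The Abca1 groups overlapped, and the log2 fold change was −0.29 (SE 0.20, adjusted p = 0.378). Nr1h3, which encodes LXR alpha, had 19.3, 10.3 and 11.4 TPM in CCR2-high libraries, against 4.48, 7.61 and 5.99 TPM in CCR2-low libraries (log2 fold change 1.04, SE 0.25, adjusted p = 0.0169). Nr1h2, which encodes LXR beta, lay at 33.8 to 37.4 TPM in CCR2-high and 36.4 to 38.9 TPM in CCR2-low libraries, with no called difference (log2 fold change −0.072, adjusted p = 0.667).

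Ch25h, the enzyme that makes 25-hydroxycholesterol, had 11.4, 17.1 and 9.38 TPM in CCR2-high libraries, against 6.11, 3.85 and 7.52 TPM in CCR2-low libraries (log2 fold change 1.00, SE 0.24, adjusted p = 0.0165). Soat1, which esterifies cholesterol for storage, had 53.6, 37.9 and 37.5 TPM in CCR2-high libraries, against 25.4, 28.3 and 27.9 TPM in CCR2-low libraries (log2 fold change 0.62, SE 0.16, adjusted p = 0.0245). The groups were apart in both genes. Apoe, the lipoprotein ligand that macrophages secrete, had 8092, 8265 and 12922 TPM in CCR2-high libraries, against 13154, 19017 and 11490 TPM in CCR2-low libraries. The groups overlapped, and the log2 fold change of −0.58 did not pass the test (SE 0.21, adjusted p = 0.0877). Apoe ranked 6 to 11 among all genes by TPM in CCR2-high and 4 to 6 in CCR2-low libraries. Mylip, which marks the LDL receptor for breakdown, had 55.9, 49.6 and 48.8 TPM in CCR2-high libraries, against 74.4, 69.2 and 69.4 TPM in CCR2-low libraries, with no overlap and a log2 fold change of −0.46 that missed the threshold (adjusted p = 0.0951). Npc1 and Npc2, which move cholesterol out of lysosomes, had log2 fold changes of 0.079 and 0.026.

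**Figure D2:**
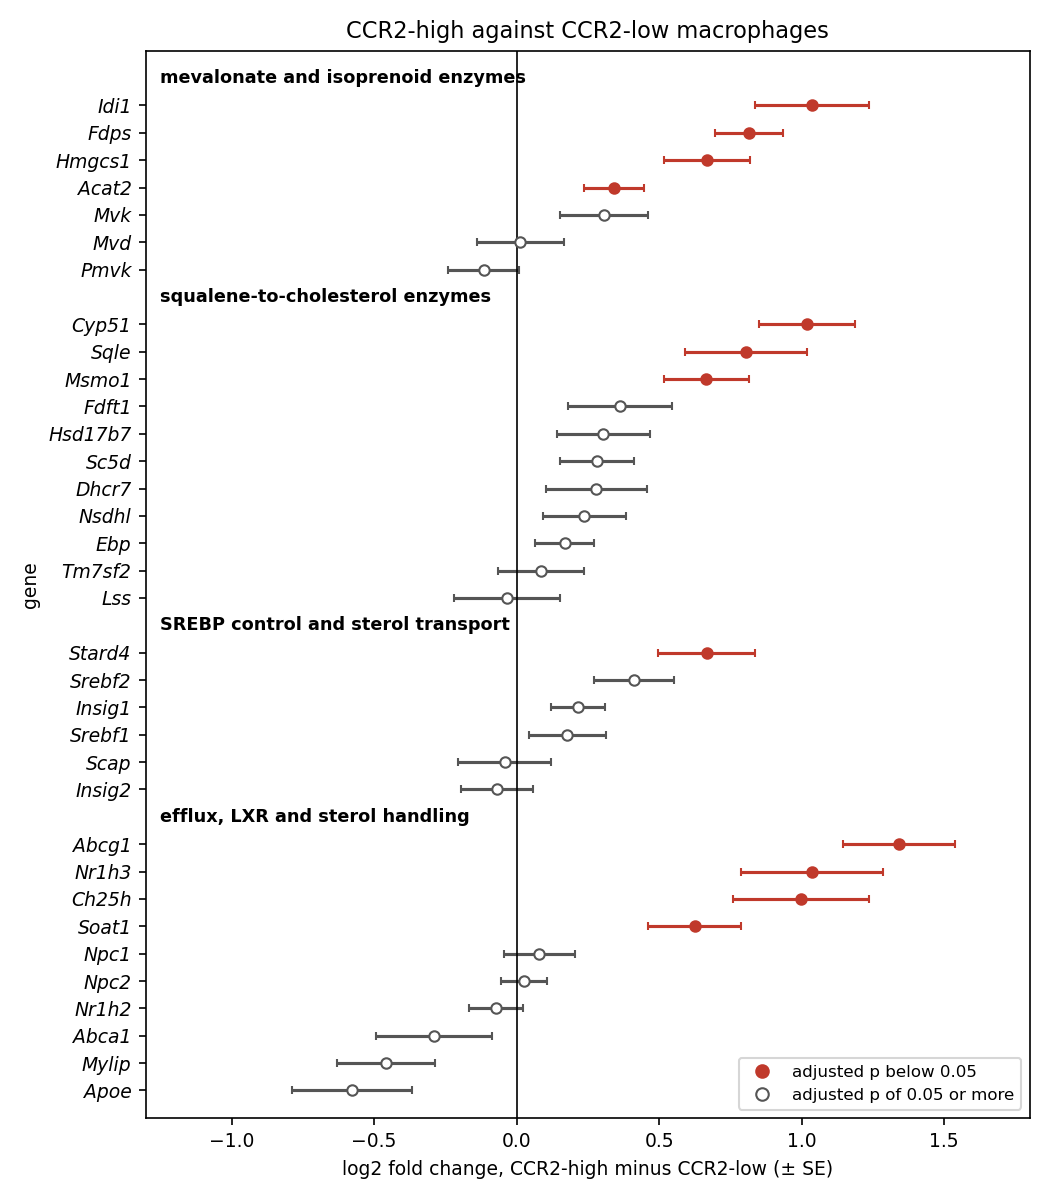
Log2 fold change (horizontal axis, CCR2-high minus CCR2-low on log2(TPM + 1), bars ± SE, 3 libraries per group) of the 34 genes by role, with filled points for adjusted p below 0.05. The 12 filled points all lie right of 0, and Abca1, Mylip and Apoe lie left of it without passing the test.

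Of the 12 called genes, 5 (Abcg1, Cyp51, Fdps, Idi1 and Msmo1) kept their call under each of the 18 alternative settings in which they could be fitted, while the other 7 missed the threshold under at least 1 setting. The number of the 34 genes called higher was 6 without CCR2-high replicate 1 and 6 without CCR2-low replicate 1. Without CCR2-high replicate 1 the limma adjusted p became 0.0569 for Hmgcs1, 0.158 for Acat2, 0.109 for Sqle, 0.0638 for Stard4, 0.0648 for Nr1h3 and 0.0939 for Soat1. In the authors' deposited table, whose test the sources used here do not name, 1 of the 34 genes had an adjusted p below 0.05 for CCR2-high over CCR2-low, Abcg1 at a log2 fold change of 1.51 (p = 0.00016). In the authors' deposited table that threshold was passed by 3.88% of genes with a value, and Cyp51 and Idi1 had adjusted p = 0.146 and 0.461.

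Markers of the cell cycle and of several other cell types moved with the same contrast. A list of 12 cell cycle genes summed to 336 to 466 TPM in CCR2-high and 196 to 213 TPM in CCR2-low libraries, and all 12 were called higher in CCR2-high. Adipocyte markers (8 genes) summed to 295 to 475 TPM in CCR2-high and 742 to 832 TPM in CCR2-low libraries, fibroblast markers (7 genes) to 19.1 to 53.4 and 106 to 182 TPM, and endothelial markers (7 genes) to 30.3 to 48.7 and 119 to 127 TPM. Of the tested members of these lists, 6 of 6, 6 of 6 and 6 of 7 were called lower in CCR2-high. Mesothelial markers summed to 0.790 to 4.24 TPM in CCR2-high and 6.88 to 11.1 TPM in CCR2-low libraries, with 3 of 3 called lower. B cell markers (4 genes) summed to 51.03 to 59.6 TPM in CCR2-high and 26.2 to 36.4 TPM in CCR2-low libraries, with 1 called higher. Of the 6 classical monocyte genes, 3 were called higher in CCR2-high, among them the sort gene Ccr2, with a median log2 fold change of 1.11, while their sums overlapped at 1835 to 2164 TPM in CCR2-high and 1833 to 2049 TPM in CCR2-low libraries. T cell markers summed to 1.55 to 5.40 TPM in CCR2-high and 3.17 to 5.73 TPM in CCR2-low libraries, with 0 of 2 called. No member of these lists was at 0 in a whole group of macrophages. Their part in the results on sterol genes was not tested. The exons of 12 of the 34 genes overlap those of another gene in GENCODE M21, Fdft1 by 774 bases with the opposite-strand cathepsin gene Ctsb and Fdps by 1124 bases with Gm43738 on the same strand, and values of such genes are uncertain because no source used here describes the counting.

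Further genes of the same regulators were read from lists of 18 SREBP-linked lipid genes and 31 LXR-linked or sterol-moving genes. Of the 17 SREBP-linked genes tested, 2 rose and 1 fell in CCR2-high libraries. Over all genes tested, 17.7% were called, 8.93% higher and 8.74% lower, so the SREBP-linked list was called at about the general rate. The desaturase Scd2 averaged 11.6 ± 3.34 TPM in CCR2-high and 5.15 ± 2.21 TPM in CCR2-low libraries (log2 fold change 1.06, adjusted p = 0.0187), and the elongase Elovl6 2.17 ± 0.362 and 1.00 ± 0.0796 TPM (0.66, adjusted p = 0.0236). Scd1, a desaturase that adipocytes also express strongly, averaged 10.9 ± 1.24 TPM in CCR2-high and 20.0 ± 6.14 TPM in CCR2-low libraries (log2 fold change −0.79, adjusted p = 0.0166). Of the 27 LXR-linked genes tested, 4 rose and 5 fell. Arl4c, Scarb1 and Nceh1 had log2 fold changes of 0.74, 0.70 and 0.80, and the receptor Mertk, the phospholipid transfer protein Pltp and Smpdl3a had −0.70, −0.55 and −0.80. The medians were −0.057 and −0.015 over the tested genes of these lists.

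The next comparisons set each macrophage subset against the labelled monocytes. Most efflux and LXR genes, namely Apoe, Abca1, Mylip, Nr1h3, Ch25h, Npc1 and Npc2, were called higher in both subsets. As deposited, Abcg1 was called higher in CCR2-high only, Soat1 was lower in both subsets and Nr1h2 was lower in CCR2-high. Insig1 was higher in both subsets. On the deposited values Fdps and Acat2 were lower in both subsets, while the other 5 mevalonate enzymes were not called in CCR2-high. A rescaling described below changed this for Hmgcs1, Idi1, Pmvk and Mvd. These comparisons share the labelled monocyte libraries and their 1 estimate of the spread, so they are not independent of each other.

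In CCR2-high macrophages, 14 of the 34 genes were higher and 11 lower than in labelled monocytes, against 77.8% of all genes tested, 26.5% higher and 51.3% lower. In CCR2-low macrophages, 11 were higher and 14 lower, against 79% of all genes tested, 28.4% higher and 50.6% lower. The libraries did not overlap in 14 higher and 11 lower genes in CCR2-high (80% of all genes tested, 27.3% higher and 52.7% lower), and in 12 higher and 15 lower genes in CCR2-low (80.2%, 28.6% higher and 51.5% lower). The median log2 fold change over the 34 genes was 0.16 in CCR2-high and −0.18 in CCR2-low macrophages. Over all genes tested it was −0.42 in CCR2-high and −0.40 in CCR2-low macrophages, so TPM placed the typical gene lower in macrophages. With each library rescaled by its median ratio to the mean library, those medians were 0.017 and 0.011. The 34 genes then split as 21 higher and 4 lower in CCR2-high and as 17 higher and 9 lower in CCR2-low macrophages. Over all genes, 12038 calls in CCR2-high and 12225 in CCR2-low became 11532 and 12105. Rescaling moves all genes of a library together, so this shift toward higher is not particular to the 34 genes. Values below are as deposited. Under rescaling the sign turned to positive for Mvk, Ebp, Stard4, Nr1h2 and Soat1 in CCR2-high, and for Hmgcs1, Fdft1, Cyp51, Srebf2 and Nr1h2 in CCR2-low.

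Among the 10 efflux and LXR genes, 8 were higher and 2 lower in CCR2-high than in labelled monocytes, and 7 were higher and 1 lower in CCR2-low. Apoe was at 71.8 to 86.8 TPM in labelled monocytes, below every macrophage library given above, with log2 fold changes of 6.91 in CCR2-high (SE 0.21, adjusted p = 3.43e-10) and 7.49 in CCR2-low (SE 0.21, adjusted p = 1.53e-10). Abca1 was at 1.98, 0.741 and 0.673 TPM in labelled monocytes, with log2 fold changes of 5.40 in CCR2-high (SE 0.20, adjusted p = 1.75e-09) and 5.69 in CCR2-low (SE 0.20, adjusted p = 9.96e-10). All macrophage libraries lay far above all labelled monocyte libraries for both genes. Mylip was at 12.2, 6.72 and 7.61 TPM in labelled monocytes, with log2 fold changes of 2.45 in CCR2-high (SE 0.17, adjusted p = 2.16e-07) and 2.91 in CCR2-low (SE 0.17, adjusted p = 4.64e-08). Ch25h was listed at 0, 0 and 0.0723 TPM in labelled monocytes, the last being about 2.05 reads, against an estimated 297 to 493 reads in CCR2-high and 128 to 201 in CCR2-low libraries. Its fitted log2 fold change of 3.70 in CCR2-high (SE 0.24, adjusted p = 1.12e-07) depends on the added 1 TPM and is no bound.

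Npc1 and Npc2 were higher in both subsets by log2 fold changes of 1.03 to 1.53, and Npc2 had 213, 200 and 224 TPM in CCR2-high, 210, 212 and 203 TPM in CCR2-low and 104, 98.1 and 102 TPM in labelled monocyte libraries. For Npc2 in CCR2-low macrophages the log2 fold change was 1.03 (SE 0.08, adjusted p = 4.63e-07). Nr1h3 averaged 13.7 ± 4.89 TPM in CCR2-high, 6.03 ± 1.56 TPM in CCR2-low and 1.26 ± 0.441 TPM in labelled monocyte libraries (SD, n = 3 each), so the 3 groups were ordered without overlap. Nr1h2 stayed within 33.8 to 45.5 TPM in all 9 libraries. It was called lower in CCR2-high than in labelled monocytes (log2 fold change −0.26, adjusted p = 0.0297), and under rescaling it was called higher in CCR2-high and CCR2-low (log2 fold changes 0.22 and 0.26). Abcg1 was higher in CCR2-high than in labelled monocytes (log2 fold change 1.63, adjusted p = 1.67e-05), while CCR2-low (8.13 to 9.56 TPM) and labelled monocytes (6.33 to 8.83 TPM) overlapped (log2 fold change 0.29, adjusted p = 0.198). After rescaling Abcg1 was called higher in CCR2-low as well (log2 fold change 0.69). Soat1, at 48.9 to 69.6 TPM in labelled monocytes, was lower in both subsets as deposited, and in CCR2-high it was at a log2 fold change of 0.084 after rescaling.

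**Figure D3:**
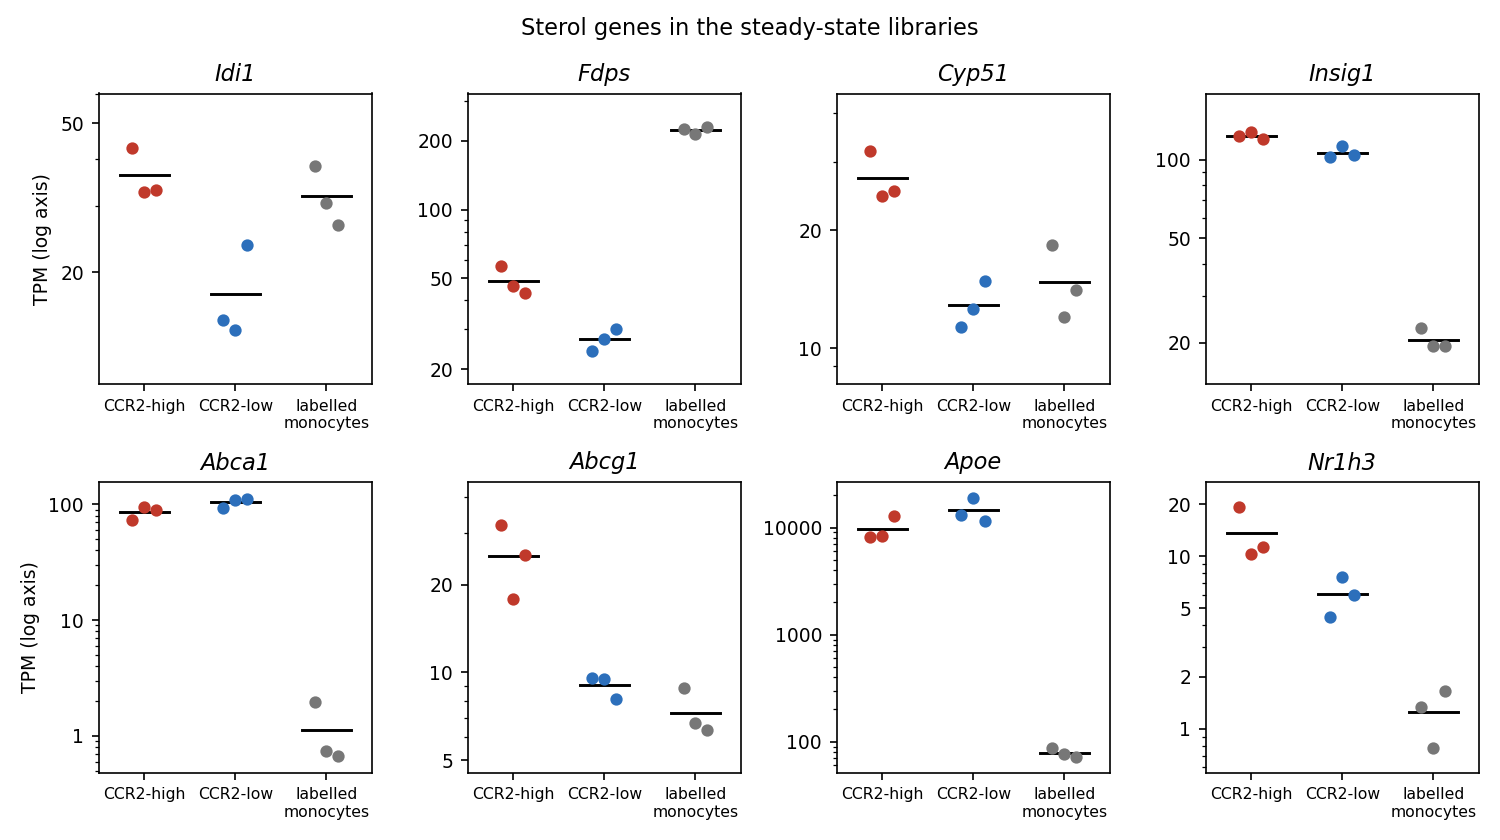
TPM (log axis) of 8 genes in each steady-state library (points), with the mean of each group of 3 as a line. In CCR2-high libraries Idi1, Fdps, Cyp51 and Abcg1 lie above all CCR2-low libraries, and Apoe, Abca1, Insig1 and Nr1h3 are lower in labelled monocytes than in every macrophage library.

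Of the 18 synthesis enzymes, 4 were higher and 7 lower in CCR2-high than in labelled monocytes, and 2 were higher and 10 lower in CCR2-low. After rescaling, which moves all genes of a library together, these counts were 9 higher and 3 lower in CCR2-high. In CCR2-low they were 5 higher and 5 lower. Fdps had 225, 215 and 230 TPM in labelled monocytes, above all macrophage libraries, with log2 fold changes of −2.18 in CCR2-high (SE 0.12, adjusted p = 3.19e-08) and −3.0 in CCR2-low (SE 0.12, adjusted p = 2.33e-09). Acat2 had 61.9, 54.8 and 56.9 TPM in labelled monocytes, with log2 fold changes of −1.63 in CCR2-high (SE 0.11, adjusted p = 1.15e-07) and −1.97 in CCR2-low (SE 0.11, adjusted p = 2.16e-08). Both were also called lower after rescaling. Idi1 and Mvk were lower in CCR2-low (log2 fold changes −0.85 and −0.52, adjusted p = 0.00228 and 0.00872) and not called in CCR2-high, and both calls were lost after rescaling. Hmgcs1 overlapped labelled monocytes (30.6 to 40.7 TPM) in CCR2-high libraries and was called lower in CCR2-low, where rescaling turned its log2 fold change to 0.069. After rescaling, Hmgcs1, Idi1, Pmvk and Mvd were called higher in CCR2-high, at log2 fold changes of 0.77, 0.66, 0.58 and 0.59. Pmvk and Mvd were then called higher in CCR2-low too, at 0.67 and 0.55.

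The later enzymes split. Msmo1 was at 7.84 to 9.39 TPM in labelled monocytes and was higher in CCR2-high (log2 fold change 1.04, SE 0.15, adjusted p = 6.62e-05), as were Cyp51 (0.85, SE 0.17, adjusted p = 0.000739) and Sc5d (0.65, SE 0.13, adjusted p = 0.000838), which encodes the lathosterol desaturase. Dhcr7, whose product makes cholesterol from 7-dehydrocholesterol, had 23.2, 15.3 and 18.9 TPM in labelled monocytes and was lower in CCR2-high (log2 fold change −0.86, SE 0.18, adjusted p = 0.000993) and in CCR2-low (−1.14, SE 0.18, adjusted p = 0.000117). In CCR2-low macrophages Sqle (log2 fold change −1.32, adjusted p = 0.000161), Nsdhl (−0.73, adjusted p = 0.000767) and Ebp (−0.49, adjusted p = 0.00102) were also lower, and the call on Ebp was lost after rescaling. Cyp51 overlapped between CCR2-low and labelled monocyte libraries (log2 fold change −0.17, adjusted p = 0.368, and 0.25 after rescaling).

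Of the 6 control and transport genes, 2 were higher and 2 lower in CCR2-high, and 2 were higher and 3 lower in CCR2-low. Insig1 had 22.7, 19.4 and 19.5 TPM in labelled monocytes, with log2 fold changes of 2.53 in CCR2-high (SE 0.09, adjusted p = 1.66e-09) and 2.32 in CCR2-low (SE 0.09, adjusted p = 2.77e-09). Insig2 was higher in CCR2-high by a log2 fold change of 0.57 (SE 0.13, adjusted p = 0.0016). Scap had 7.96 to 9.21 TPM in CCR2-high and 8.16 to 9.24 TPM in CCR2-low libraries, against 36.5, 22.1 and 28.4 TPM in labelled monocytes, and was lower in CCR2-high (log2 fold change −1.62, SE 0.16, adjusted p = 3.82e-06) and CCR2-low (−1.58, SE 0.16, adjusted p = 4.14e-06). Srebf1 was lower in both subsets (log2 fold changes −0.71 and −0.89, adjusted p = 0.000566 and 9.99e-05), and after rescaling its adjusted p in CCR2-high was 0.0506. Srebf2 was not called in either subset as deposited and was called higher in both after rescaling, at log2 fold changes of 0.77 and 0.32. Stard4 was lower in CCR2-low by a log2 fold change of −0.90 (SE 0.17, adjusted p = 0.000486).

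In the authors' deposited table, where fold changes run labelled monocytes over macrophages, 13 of the 34 genes were lower and 3 higher in labelled monocytes than in CCR2-high at adjusted p below 0.05, and 9 were lower and 3 higher than in CCR2-low. In the authors' deposited table those thresholds were passed by 37.7% and 46.0% of genes with a value. In each contrast the 3 higher genes were Acat2, Fdps and Scap, so Srebf1, Dhcr7 and Sqle did not pass there. Ebp, Nr1h2 and Soat1 had the authors' log2 fold changes of −0.044, −0.20 and −0.082 against CCR2-high, and Hmgcs1 −0.045 against CCR2-low. These run opposite to the limma calls on the deposited values. The 12 cell cycle genes summed to 336 to 466 TPM in CCR2-high, 196 to 213 TPM in CCR2-low and 2467 to 2876 TPM in labelled monocyte libraries, and the 12 were called lower in both subsets. The part of cell cycle genes and of the granule precursor genes in these results was not tested. Of the 17 SREBP-linked lipid genes, 3 were higher and 12 lower in CCR2-high, and 3 were higher and 11 lower in CCR2-low. Of all genes tested, 26.5% were higher and 51.3% lower in CCR2-high, and 28.4% and 50.6% in CCR2-low. The list counts in this paragraph are on values as deposited, where the typical gene was lower in macrophages. The fatty acid synthase Fasn averaged 6.21 ± 0.746 TPM in CCR2-high, 5.21 ± 1.27 TPM in CCR2-low and 53.2 ± 13.7 TPM in labelled monocyte libraries, and Scd2 100.8 ± 22.2 TPM in labelled monocytes. Of the 27 LXR-linked genes, 12 were higher and 10 lower in CCR2-high, and 13 were higher and 9 lower in CCR2-low. Pltp averaged 1235 ± 146 TPM in CCR2-high, 1805 ± 47.3 TPM in CCR2-low and 0.0261 ± 0.0289 TPM in labelled monocyte libraries.

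Averaged over genes, the arms separated the steady-state groups in different ways. The mean log2(TPM + 1) of the 18 synthesis enzymes was 4.02, 3.83 and 3.81 in CCR2-high libraries, 3.39, 3.45 and 3.62 in CCR2-low libraries, and 4.24, 3.94 and 4.03 in labelled monocytes. On these deposited values CCR2-low libraries were the lowest, and CCR2-high and labelled monocytes overlapped. The mean of the 10 efflux and LXR genes was 6.03, 5.89 and 5.93 in CCR2-high libraries, 5.64, 5.72 and 5.68 in CCR2-low libraries, and 3.68, 3.35 and 3.41 in labelled monocytes. All macrophage libraries were far above labelled monocytes, and CCR2-high lay above CCR2-low. These means are descriptions without a test, and they weight a scarce transcript like an abundant one. They use TPM as deposited, which placed the typical gene lower in macrophages (median log2 fold changes −0.42 in CCR2-high and −0.40 in CCR2-low). The place of labelled monocytes on the synthesis arm may therefore differ under rescaling, for which these means were not computed.

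**Figure D4:**
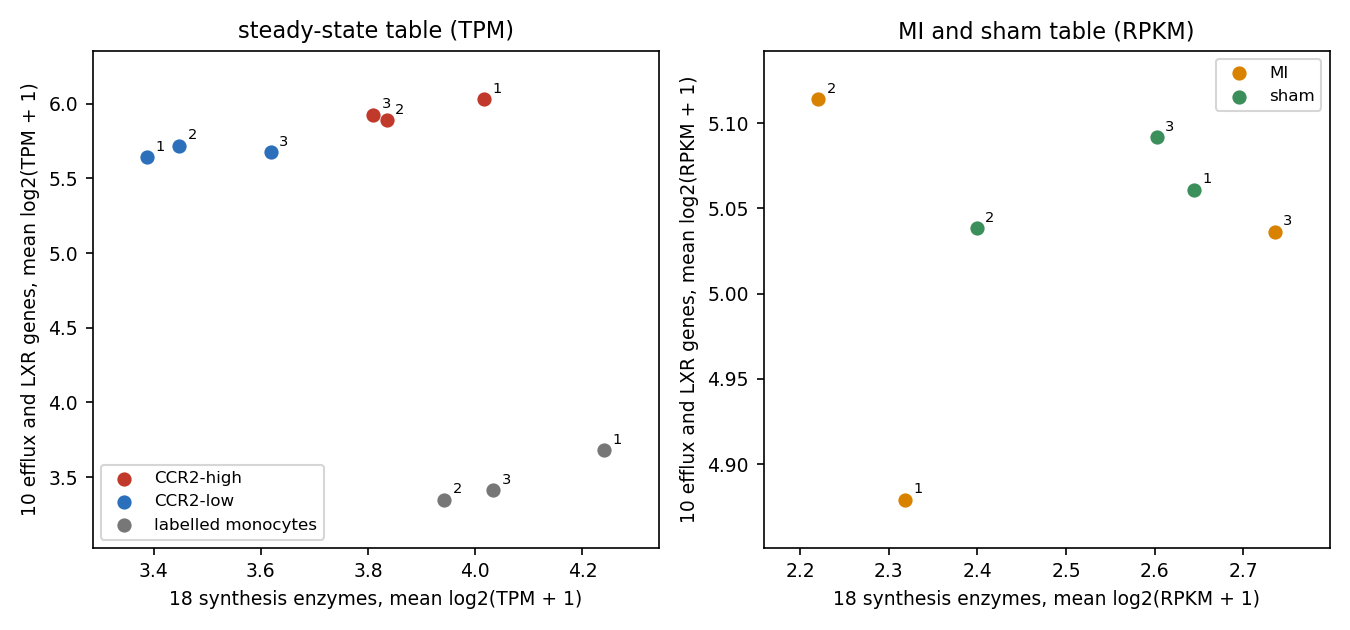
Mean log2(value + 1) of the 18 synthesis enzymes (horizontal axis) against that of the 10 efflux and LXR genes (vertical axis) per library, numbered by replicate, for the steady-state table (left, TPM) and the surgery table (right, RPKM), on different axes. On the deposited values the steady-state groups lie apart on the left. On the right the MI libraries lie on all sides of the sham libraries, and MI replicate 1 is the lowest for efflux, at 4.88.

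The surgery comparison asks whether MI changes CCR2-low macrophages of visceral fat. None of the 34 genes was called between MI and sham libraries. Without passing the test, Acat2 and Insig2 lay above sham in every MI library, and Npc1, Npc2, Soat1, Dhcr7 and Nsdhl lay below. In limma on log2(RPKM + 1), 0 of 9607 genes tested were called (0% in either direction), with 753 at an unadjusted p below 0.05, and 0 of the 32 tested members were called. Lss and Hsd17b7 were below the filter on low values, at 0.569 to 0.937 and 0.479 to 0.720 RPKM in MI libraries and 0.653 to 0.854 and 0.485 to 0.608 RPKM in sham libraries. At an unadjusted p below 0.05, 1 of the 32 genes was higher and 4 were lower in MI. The MI and sham libraries did not overlap in 2 higher and 5 lower genes, against 5.84% higher and 8.71% lower over all genes tested. The median log2 fold change was −0.12 over the 32 genes and −0.016 over all genes tested.

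By role, the smallest p of the mevalonate enzymes belonged to Acat2, with 4.53, 4.36 and 5.58 RPKM in MI libraries, against 3.57, 3.30 and 4.32 RPKM in sham libraries (log2 fold change 0.30, SE 0.12, limma adjusted p = 0.621). The Acat2 groups were narrowly apart, MI above sham. Fdps had 10.05, 7.85 and 23.1 RPKM in MI libraries, against 18.2, 11.3 and 14.6 RPKM in sham libraries, so MI spanned more than the whole range of sham. Idi1 likewise had 3.68, 1.84 and 5.86 RPKM in MI libraries, against 5.09, 4.50 and 5.74 RPKM in sham libraries. Among the later enzymes Dhcr7 had 2.29, 1.795 and 2.64 RPKM in MI libraries, against 3.17, 2.95 and 2.92 RPKM in sham libraries (log2 fold change −0.32, SE 0.12, adjusted p = 0.578). All MI libraries lay below all sham libraries for Dhcr7, as they did for Nsdhl (log2 fold change −0.24, adjusted p = 0.621). None of the 6 control genes passed, with log2 fold changes of −0.22 to 0.13. Insig2 had 8.52, 7.89 and 8.16 RPKM in MI libraries, against 7.71, 7.74 and 7.504 RPKM in sham libraries, a log2 fold change of 0.086 (SE 0.075, adjusted p = 0.831).

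Among the efflux genes, Npc2 had 128, 141 and 142 RPKM in MI libraries, against 177, 167 and 165 RPKM in sham libraries. The groups were apart, and the log2 fold change was −0.31 (SE 0.11, adjusted p = 0.578). Npc1 and Soat1 were apart in the same direction, with log2 fold changes of −0.23 and −0.36 (adjusted p = 0.592 and 0.644). MI replicate 1 stood away from the other libraries in several efflux genes. Abcg1 was at 15.9, 39.5 and 49.2 RPKM in MI libraries, against 49.3, 40.7 and 43.4 RPKM in sham libraries, and Nr1h3 at 7.65, 26.95 and 24.3 RPKM in MI libraries, against 24.5, 23.5 and 22.3 RPKM in sham libraries. Apoe was at 8674, 3491 and 2656 RPKM in MI libraries, against 2104, 2429 and 3085 RPKM in sham libraries. Without MI replicate 1 the log2 fold changes became −0.0071 for Abcg1, against −0.48 with it, 0.12 for Nr1h3, against −0.42, and 0.28 for Apoe, against 0.78, and none was called either way. In the same library the sort genes were low too, Ccr2 at 8.09 RPKM and Cx3cr1 at 5.11 RPKM, and the macrophage list summed to 21294 RPKM, against 35954 to 45554 RPKM in the other MI and sham libraries.

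**Figure D5:**
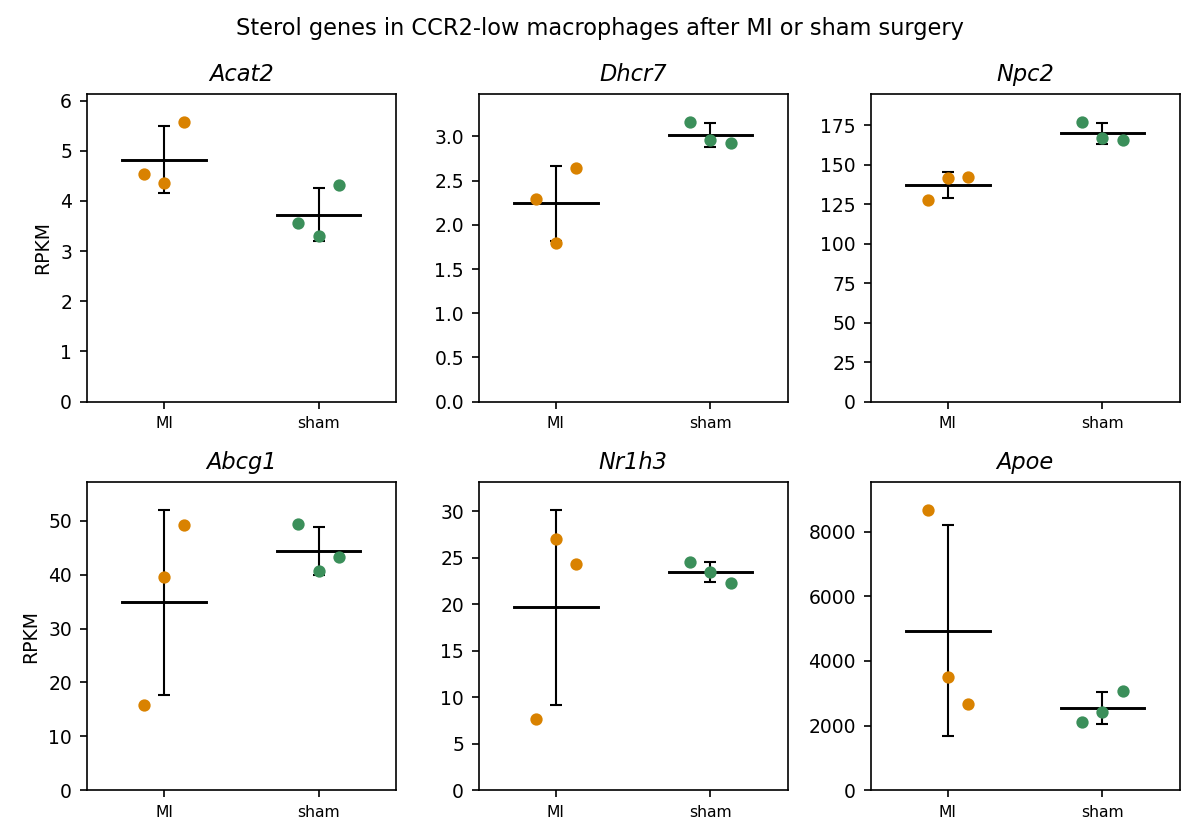
RPKM of 6 genes in each MI and sham library (points), with mean and SD of each group of 3 (line and bars), axes from 0. Npc2 and Dhcr7 are lower in all MI libraries than in sham libraries, and in Abcg1, Nr1h3 and Apoe MI replicate 1 lies farthest from the other libraries, at 15.9, 7.65 and 8674 RPKM.

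Adipocyte markers summed to 80.2 to 178 RPKM in MI and 32.2 to 43.3 RPKM in sham libraries, and fibroblast markers to 69.1 to 101 and 21.4 to 44.1 RPKM. Of their tested genes, 0 of 5 and 0 of 6 were called, with median log2 fold changes of 1.37 and 0.76. The 12 cell cycle genes summed to 88.4 to 124 RPKM in MI and 134 to 162 RPKM in sham libraries, and 7 of them did not overlap, all lower in MI, with 0 called. B cell markers summed to 9.30 to 11.3 RPKM in MI and 13.4 to 28.2 RPKM in sham libraries, and T cell markers to 0.190 to 1.18 RPKM in MI and 1.69 to 3.76 RPKM in sham libraries, with 0 of 2 called for B cells and no T cell gene past the filter. Mesothelial markers summed to 7.45 to 12.3 RPKM in MI and 2.65 to 9.31 RPKM in sham libraries, and 0 of 3 were called. No member of these lists was at 0 in a whole group. Their part in the values of the sterol genes was not tested. Abca1, at 17.4 to 26.2 RPKM in MI and 21.1 to 25.6 RPKM in sham libraries, and Insig1, at 30.9 to 45.1 and 27.6 to 37.0 RPKM, overlapped between the groups. Of the SREBP-linked and LXR-linked lists, 0 of 13 and 0 of 24 tested genes were called.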

How the data were processed

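RNA of sorted cells was purified by PicoPure, per the labels' protocols. The authors deposited, for the 9 steady-state libraries, TPM per gene, with columns of their own log2 fold changes and adjusted p-values (p-value and log2 columns, per the file headers). For the 6 surgery libraries the authors deposited RPKM, per the file headers. Reads were placed on mm10, per the submitters' processing notes. Aligner, annotation and the authors' test: not given in the sources used here.

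Genes were matched by Ensembl ID to GENCODE M21 (27702 and 48349 IDs). Msmo1 stands under its older symbol in the steady-state table. Read depth was estimated from low values as multiples of 1 read over merged exon length; 81.5 to 82.9% of low TPM values and 85.2 to 86.7% of low RPKM values were whole within 0.05, too few for a count test. It is approximate, and the precision rests on the 3 libraries per group.

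limma 3.58.1 (R 4.3.3) was run, 1 fit per table, on log2(value + 1) of genes reaching 1 in 3 or more libraries, two-sided, with the eBayes trend on. Fold changes on this scale understate those of low genes. The fits were tested on simulated data. Full statistics were given for up to 4 called members per role with the smallest p, or the smallest-p member where none was called; genes singled out beyond that (Abca1, Apoe, Mylip, Srebf2, Abcg1, Fdps and others) were chosen after their values were seen. For other lists up to 3 called genes per direction were named. Members and lists were chosen with earlier results of these data known. Promoters were searched for 12 letter patterns. Alternatives were other pseudocounts (0.1 and 5), filters, scalings, a robust fit, a replicate block, fits of only the groups compared, and leaving out each library.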

Additional observations from a re-analysis of the deposited data

How the results depend on the processing

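The higher count for CCR2-high against CCR2-low was 12 as reported, 7 with no filter on low values and 6 to 13 when 1 library was left out. Under median-of-ratios rescaling it was 14, with Srebf2 and Insig1 gained (limma adjusted p = 0.0167 and 0.0337). Srebf2 was also called higher under quantile normalization (0.0364), with only the 2 groups in the fit (0.0422) and without labelled monocytes replicate 1 (0.024). The lower count, 0 as reported, was 2 under quantile normalization (Apoe and Mylip), 1 with only the 2 groups in the fit (Mylip) and 0 to 1 when 1 library was left out. For CCR2-high against labelled monocytes, 11 lower genes became 4 under median-of-ratios rescaling, 6 under quantile normalization and 7 to 10 without 1 library, and 14 higher became 21, 19 and 13 to 16 under the same settings. For CCR2-low against labelled monocytes, 11 higher and 14 lower became 17 and 9 under median-of-ratios rescaling, and 9 to 11 and 13 to 15 without 1 library. The causes were not tested, except that rescaling by construction shifts all genes of a library together. Over all genes, 2733 calls between CCR2-high and CCR2-low became 1795 with a replicate block by the numbers in the titles and 1481 to 3453 without 1 library; against labelled monocytes they ran from 10924 to 11944 for CCR2-high and from 11208 to 12147 for CCR2-low. In MI against sham, 0 genes called became 5 without MI replicate 3 and 0 when each of the other 5 libraries was left out in turn, and 0 members were called in each of these settings. Among the fold changes called as reported, those that turned sign were all against labelled monocytes: in CCR2-high, Ebp (0.15 and 0.039), Nr1h2 (0.22 and 0.12) under rescaling and quantile normalization, and Soat1 (0.084) under rescaling; in CCR2-low, Hmgcs1 (0.069 and 0.030) under both. By title numbers, same-numbered libraries did not deviate together (correlations from −0.57 to 0.064 over genes). The descriptions number the surgery libraries otherwise, and by those numbers the correlations were 0.10, −0.50 and 0.17. Neither numbering was taken as pairs, and with a block by either, 0 genes were called between MI and sham. With the block by title numbers, Acat2, Sqle and Stard4 missed the threshold between the macrophage subsets (adjusted p = 0.107, 0.0582 and 0.059).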

Other observations

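Ratios between partner genes within a library, which need no scaling between libraries, are given as values without a test. Abcg1 over Abca1 was 0.188 to 0.435 in CCR2-high, 0.0728 to 0.102 in CCR2-low and 4.46 to 9.41 in labelled monocyte libraries. In the surgery table, processed separately, the same ratio was 0.730, 1.51 and 2.84 in MI libraries and 1.69 to 2.34 in sham libraries. The level of this ratio was not tested across the tables. Nr1h3 over Nr1h2, the LXR pair, was 0.276 to 0.570 in CCR2-high, 0.115 to 0.209 in CCR2-low and 0.0200 to 0.0375 in labelled monocyte libraries. It was 0.458, 1.29 and 1.15 in MI libraries and 1.23 to 1.31 in sham libraries. Srebf2 over Srebf1 was 2.38 to 2.91 in CCR2-high, 1.89 to 2.43 in CCR2-low and 1.22 to 1.28 in labelled monocyte libraries, and Insig1 over Insig2 was 6.17 to 6.83, 4.66 to 5.87 and 1.57 to 1.73 in the same order of groups. In the surgery table Srebf2 over Srebf1 was 2.26 in MI replicate 1 and 1.35 to 1.51 in the other MI and sham libraries.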
